A study of Mus musculus with 8 samples.

Results

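The 10 genes described here encode feedback inhibitors of mitogen-activated protein kinase (MAPK) signalling that were measured in N2A cells treated with the cannabinoid receptor agonist HU210. They are 7 dual-specificity phosphatases (Dusp1, Dusp4, Dusp5, Dusp6, Dusp7, Dusp8 and Dusp16) and 3 Sprouty genes (Spry1, Spry2 and Spry4). They were found by their symbols among the 15894 genes that the table lists at all 4 time points. All 10 had a mean FPKM (a count of sequenced fragments divided by transcript length and by library size) of at least 1 and so belong to the 11311 genes that were tested.

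ERK, the last kinase of the Ras, Raf and MEK cascade, drives transcription of genes that switch the cascade off again. Dual-specificity MAPK phosphatases remove the phosphates from the activation loop of ERK, JNK or p38. Sprouty proteins act further upstream and restrain the passage of signals from receptor tyrosine kinases to Ras and Raf. The cannabinoid 1 receptor (CB1R) couples to inhibitory G proteins, and ERK is among the kinases that it is known to activate in neuronal cells.

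N2A (Neuro-2A) is an established mouse neuroblastoma cell line that expresses CB1R and extends neurites when the receptor is stimulated. All cells were kept for 16 h in serum-free medium with bovine serum albumin before they received 2 µM HU210 or drug-free DMSO, so starvation is common to both groups. RNA was taken 2, 4, 6 and 8 h later, and each of the 8 conditions was sequenced as 1 library made by pooling the RNA of 2 to 3 independent experiments. No replicate exists to check what HU210 did at any 1 hour, so the limits of 1.3-fold and 1.5-fold used below describe size and are not tests. The hours themselves are not replicates of each other. A p-value that uses them as pairs sets the mean difference between HU210 and DMSO against the scatter of that difference between hours.

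Dusp4 and Dusp6 were far more abundant than the other members. The mean FPKM over the 8 libraries was 64.9 for Dusp6, 64.4 for Dusp4, 21.9 for Spry2, 9.37 for Spry4, 8.39 for Spry1, 7.15 for Dusp16, 4.80 for Dusp1, 4.58 for Dusp5, 2.79 for Dusp8 and 2.05 for Dusp7. The levels of Dusp6 and Dusp4 could not be ordered, since Dusp6 was above Dusp4 in 5 of the 8 libraries. Both lay above Spry2 in every library, and Spry2 lay above Spry4 in every library with no overlap of their ranges. The ranges of Spry4 and Spry1, of Spry1 and Dusp16, of Dusp1 and Dusp5, of Dusp5 and Dusp8, and of Dusp8 and Dusp7 overlapped, whereas those of Dusp16 and Dusp1 did not.

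The promoters of 5 members are shown, chosen by how HU210 and DMSO libraries compared. Dusp6, Dusp5 and Spry1 were higher with HU210 at 2 h and 8 h, and Dusp1 and Dusp8 were lower at 2 h and 4 h, Dusp1 by less than 1.3-fold. Not shown are Dusp7 and Spry2, which were also higher at 2 h and 8 h, and Dusp16, which was also lower at 2 h and 4 h. Whether a motif bears on these differences was not tested. Each stretch is the 250 bases before the transcription start in RefSeq (build GRCm38.p6), written 5′ to 3′ on the strand of the gene. The positions are chr10:99262981-99263230 on the plus strand for Dusp6, chr19:53528895-53529144 on the plus strand for Dusp5, chr3:37639697-37639946 on the plus strand for Spry1, chr17:26508473-26508722 on the minus strand for Dusp1 and chr7:142095285-142095534 on the minus strand for Dusp8. Capitals mark the cyclic AMP response element (CRE, TGACGTCA), its TGACG core and the CArG box, the element bound by serum response factor.
Dusp6: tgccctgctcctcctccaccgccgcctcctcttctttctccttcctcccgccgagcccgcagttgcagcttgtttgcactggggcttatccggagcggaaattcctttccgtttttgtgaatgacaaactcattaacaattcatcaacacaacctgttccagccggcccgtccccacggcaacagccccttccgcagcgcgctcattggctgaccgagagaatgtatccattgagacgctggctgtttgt
Dusp5: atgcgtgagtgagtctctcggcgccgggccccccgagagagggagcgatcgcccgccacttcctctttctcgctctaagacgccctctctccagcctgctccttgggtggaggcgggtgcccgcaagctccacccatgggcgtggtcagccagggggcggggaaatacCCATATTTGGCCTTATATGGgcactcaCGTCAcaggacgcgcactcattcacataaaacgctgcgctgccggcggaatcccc
Spry1: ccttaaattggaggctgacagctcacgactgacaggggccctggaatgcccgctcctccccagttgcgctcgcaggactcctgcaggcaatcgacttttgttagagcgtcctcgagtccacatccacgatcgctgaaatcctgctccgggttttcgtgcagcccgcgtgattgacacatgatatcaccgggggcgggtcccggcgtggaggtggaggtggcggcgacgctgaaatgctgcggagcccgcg
Dusp1: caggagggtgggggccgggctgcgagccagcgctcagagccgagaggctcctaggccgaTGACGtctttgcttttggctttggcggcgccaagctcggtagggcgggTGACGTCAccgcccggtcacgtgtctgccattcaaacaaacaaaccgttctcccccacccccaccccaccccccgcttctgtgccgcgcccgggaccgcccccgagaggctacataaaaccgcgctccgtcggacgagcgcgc
Dusp8: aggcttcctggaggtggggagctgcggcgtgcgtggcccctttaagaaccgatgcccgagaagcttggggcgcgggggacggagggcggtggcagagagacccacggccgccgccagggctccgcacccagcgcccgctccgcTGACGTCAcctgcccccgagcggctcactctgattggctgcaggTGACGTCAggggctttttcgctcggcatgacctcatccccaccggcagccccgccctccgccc
Of the 10 members, 8 had an entry in the promoter table. The full CRE was found in the promoters of Dusp1, at bases -143 to -136 from the start, and Dusp8, at bases -107 to -100 and -63 to -56. It was present in 1.55% of all 32851 promoters of the same length. The Dusp5 promoter held a pair of adjoining CArG boxes at bases -82 to -73 and -72 to -63, an element found in 1.47% of all promoters, and a TGACG core at bases -55 to -51. The TGACG core, which every full CRE contains, was found in 4 members (Dusp1, Dusp5, Dusp8 and Dusp16) and in 17.8% of all promoters. The EGR motif GCGNGGGCG was found in Dusp16 and in 4.70% of all promoters. The AP-1 motif TGANTCA and the STAT motif TTCNNNGAA matched in 0 of the 8 members and in 6.75% and 7.02% of all promoters. Every motif was searched on both strands, and none of them matched in the shown stretches of Dusp6 and Spry1.

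The comparison of HU210 with DMSO at each hour asks whether these feedback genes differ in level after CB1R stimulation, and when. Dusp6 (DUSP6 in the table, ENSMUSG00000019960, chromosome 10 from 98725865 to 98730122 in mm9, plus strand) encodes the cytoplasmic phosphatase that acts selectively on ERK. Its FPKM was 47.5 with DMSO and 74.7 with HU210 at 2 h, 51.5 and 69.0 at 4 h, 74.8 and 66.5 at 6 h, and 58.6 and 76.8 at 8 h. The HU210 library was the higher at 2, 4 and 8 h and the lower at 6 h, and the ranges of the groups overlapped because the DMSO library at 6 h lay among the HU210 libraries. The log2 change, log2[(FPKM with HU210 + 1)/(FPKM with DMSO + 1)], reached 0.64 at 2 h and 0.42 at 4 h, then -0.17 at 6 h and 0.38 at 8 h. The libraries are bulk RNA, in which fewer cells of a kind and less RNA per cell cannot be told apart.

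Dusp4 (DUSP4, ENSMUSG00000031530, chromosome 8 from 35870351 to 35882948, plus strand) encodes a nuclear phosphatase whose transcription is itself induced by ERK. Its FPKM was 48.0 with DMSO and 74.5 with HU210 at 2 h, 58.5 and 64.8 at 4 h, 77.6 and 64.7 at 6 h, and 54.4 and 72.8 at 8 h. The log2 change was 0.62, 0.14, -0.26 and 0.41 at the 4 successive hours, with the same order of directions as for Dusp6. The 4 HU210 libraries lay within the range of the 4 DMSO libraries, whose highest value was again that of 6 h.

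Dusp4 and Dusp6 varied little between the HU210 libraries and more between the DMSO libraries. The mean FPKM of Dusp6 was 71.8 ± 4.79 (SD, n = 4 hours) with HU210 and 58.1 ± 12.1 (SD, n = 4) with DMSO, and that of Dusp4 was 69.2 ± 5.20 (SD, n = 4) and 59.6 ± 12.7 (SD, n = 4). From the lowest to the highest library, Dusp6 spanned 1.15-fold with HU210 and 1.57-fold with DMSO, and Dusp4 spanned 1.15-fold and 1.62-fold. The log2 range was wider over the DMSO libraries for 6 of the 10 members, which besides Dusp4 and Dusp6 were Dusp5, Spry1, Spry2 and Spry4. A wider DMSO range was also the case for 56.0% of all genes tested, so the count over the members does not stand apart from the rest. With the mean of the 4 DMSO libraries as the reference, the log2 changes of Dusp6 at 6 h and of Dusp4 at 6 h were 0.21 and 0.14, opposite in sign to those against the DMSO library of the same hour.

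**Figure D1:**
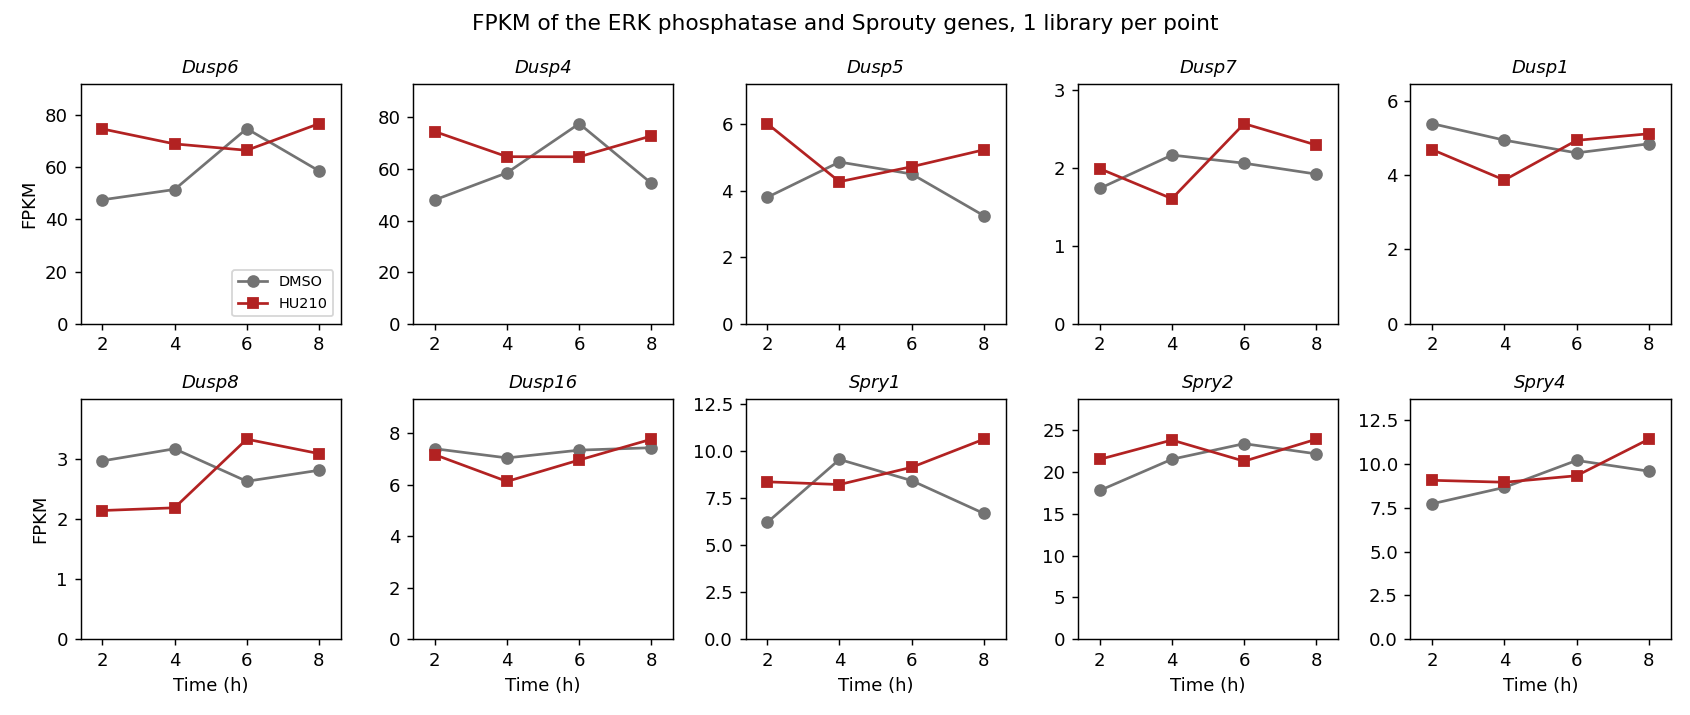
FPKM (y axis, from 0) of each of the 10 genes against hours of treatment (x axis), with 1 library per point, grey circles for DMSO and red squares for HU210. Dusp6 and Dusp4 lay between 64.7 and 76.8 in the HU210 libraries, and their DMSO libraries were lower at 2, 4 and 8 h and higher at 6 h.

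Dusp5 (DUSP5, ENSMUSG00000034765, chromosome 19 from 53603599 to 53616921, plus strand) encodes a nuclear phosphatase selective for ERK. Its FPKM was 3.80 with DMSO and 6.01 with HU210 at 2 h, 4.86 and 4.27 at 4 h, 4.50 and 4.72 at 6 h, and 3.24 and 5.23 at 8 h. It was higher with HU210 at 2 h and 8 h, by log2 changes of 0.55 at both hours, and the values at 4 h (-0.15) and 6 h (0.056) were small. As ratios of FPKM without the added 1, the differences were 1.58-fold at 2 h and 1.61-fold at 8 h. The promoter with the adjoining CArG boxes is the one of this gene.

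Dusp7 (DUSP7, ENSMUSG00000053716, chromosome 9 from 106270963 to 106278055, plus strand), the other cytoplasmic phosphatase of the group that prefers ERK, was the least abundant member. Its FPKM was 1.74 with DMSO and 1.99 with HU210 at 2 h, 2.17 and 1.61 at 4 h, 2.06 and 2.57 at 6 h, and 1.92 and 2.30 at 8 h. The log2 change stayed between -0.28 at 4 h and 0.22 at 6 h, short of 1.3-fold at every hour, and the groups overlapped. That holds with 1 added to each FPKM, which shrinks the change of a gene this low. With 0.1 added in its place, the change at 4 h was -0.41, past 1.3-fold, and the ratio of FPKM without an addition was 0.741.

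Dusp1 (DUSP1, ENSMUSG00000024190, chromosome 17 from 26642535 to 26645464, minus strand) encodes a nuclear phosphatase that is induced early by stress and growth factors and acts on p38 and JNK as well as ERK. Its FPKM was 5.39 with DMSO and 4.69 with HU210 at 2 h, 4.95 and 3.87 at 4 h, 4.60 and 4.94 at 6 h, and 4.85 and 5.12 at 8 h. In contrast to Dusp4 and Dusp6, it had the lower value with HU210 at 2 h (log2 change -0.17) and at 4 h (-0.29). Dusp5 differed from Dusp1 in direction at 2 h only, since it was also lower at 4 h (-0.15). The later values of 0.084 at 6 h and 0.065 at 8 h were close to 0, and were 0.00072 and 0.0030 with each library centred on its median.

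Dusp8 (DUSP8, ENSMUSG00000037887, chromosome 7 from 149265395 to 149281748, minus strand) and Dusp16 (DUSP16, ENSMUSG00000030203, chromosome 6 from 134665488 to 134742643, minus strand) encode phosphatases directed at JNK and p38 more than at ERK. The FPKM of Dusp8 was 2.97 with DMSO and 2.14 with HU210 at 2 h, 3.17 and 2.19 at 4 h, 2.63 and 3.33 at 6 h, and 2.81 and 3.09 at 8 h. The log2 change came to -0.34 at 2 h and -0.39 at 4 h, then 0.25 at 6 h and 0.10 at 8 h, so both early HU210 libraries were below all 4 DMSO libraries and both late ones were not. Dusp16 held a level of 6.13 to 7.77 FPKM in all 8 libraries, with log2 changes of -0.040, -0.17, -0.068 and 0.056 at the 4 successive hours. A second annotated entry named Dusp8 overlaps the end of the Dusp8 gene, and whether the counting used strand is not given in the sources used here, so the Dusp8 values are uncertain to that extent.

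Spry1 (SPRY1, ENSMUSG00000037211, chromosome 3 from 37538869 to 37543520, plus strand) had an FPKM of 6.19 with DMSO and 8.35 with HU210 at 2 h, 9.54 and 8.20 at 4 h, 8.41 and 9.12 at 6 h, and 6.67 and 10.6 at 8 h. The HU210 library at 8 h held the highest value of the 8, and the log2 changes were 0.38, -0.19, 0.10 and 0.60 at the 4 successive hours. Like Dusp5, Spry1 was therefore higher with HU210 at the first and the last hour and not at 4 h, against the DMSO library of the same hour. With the mean of the 4 DMSO libraries as the reference, the changes of Spry1 were 0.12, 0.098, 0.23 and 0.43 at the 4 successive hours. Dusp5 at 4 h was then at 0.058, so that the value at 4 h changed sign for both genes.

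Spry2 (SPRY2, ENSMUSG00000022114, chromosome 14 from 106291166 to 106296036, minus strand) was the most abundant of the Sprouty genes, at 17.8 with DMSO and 21.5 with HU210 at 2 h, 21.5 and 23.8 at 4 h, 23.4 and 21.3 at 6 h, and 22.2 and 23.9 at 8 h in FPKM. Spry4 (SPRY4, ENSMUSG00000024427, chromosome 18 from 38745922 to 38760922, minus strand) stood at 7.73 and 9.06 at 2 h, 8.66 and 8.95 at 4 h, 10.2 and 9.32 at 6 h, and 9.58 and 11.4 at 8 h. Against the DMSO library of the same hour, both were higher with HU210 at 2, 4 and 8 h and lower at 6 h, and neither passed 1.3-fold at any hour. Their log2 changes lay between -0.13 and 0.26 for Spry2 and between -0.12 and 0.23 for Spry4. With the mean of the 4 DMSO libraries as the reference, the changes at 2 h were 0.026 for Spry2 and 0.0097 for Spry4. At 6 h they were 0.012 and 0.046, opposite in sign to those above, and Spry4 at 4 h was at -0.0062.

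Over the 10 members, the hours differed in direction. At 2 h, 7 were higher and 3 lower with HU210, where 36.0% of all genes tested were higher, and Dusp4, Dusp5 and Dusp6 were higher by at least 1.3-fold, while 1.49% of all genes tested were. None of the members was lower by that size at 2 h, and for 10 genes this does not stand apart from the 3.91% of all genes that were. With 0.1 added to each FPKM in place of 1, Dusp8 was at -0.45 at 2 h, past 1.3-fold downward. Dusp4 and Dusp6 were also past 1.5-fold at 2 h, a size reached upward by 0.504% of all genes. When the mean DMSO level over the hours served as the reference, the changes at 2 h were 0.38 for Dusp6 and 0.34 for Dusp4, so that neither was past 1.5-fold, Dusp4 was no longer past 1.3-fold, and the number of members past 1.3-fold was 2. The median log2 change of the members at 2 h was 0.23, and that of all genes tested was -0.051.

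At 4 h, 4 members were higher and 6 lower with HU210, and 40.9% of all genes were higher. Dusp6 was the 1 member higher by at least 1.3-fold (8.96% of all genes tested) and Dusp8 the 1 member lower by that size (19.9% of all genes). The median was -0.16 for the members and -0.081 for all genes. At 6 h, 5 members were higher and 5 lower, where 65.6% of all genes were higher, and 0 of them passed 1.3-fold in either direction, compared with 6.38% of all genes upward and 1.72% downward. The median at 6 h was -0.0057 for the members and 0.062 for all genes.

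At 8 h, all 10 members were higher with HU210, with a median of 0.20 against 0.044 for all genes, of which 62.5% were higher. With each library centred on its median, 1 of the 10, Dusp16, was at -0.0067 at this hour. Dusp4, Dusp5, Dusp6 and Spry1 were higher by at least 1.3-fold at 8 h, a size that 4.38% of all genes reached upward and 1.44% downward, and Spry1 was past 1.5-fold (1.17% of all genes). Dusp6 at 8 h, with 0.383, was just past the 1.3-fold limit of 0.379 on the log2 scale, and Spry1 at 2 h, with 0.378, just missed it. Only 2 of the 4 stayed past the limit with each library centred on its median or after a GC content and length trend had been taken out (Dusp5 and Spry1 in both cases), and 2 with the mean of the DMSO libraries as the reference (Dusp6 and Spry1). Dusp4, Dusp5 and Dusp6 were past 1.3-fold upward at both 2 h and 8 h, as were 0.283% of all genes tested. With the mean DMSO reference Dusp6 was the only one of the 3, and at 2 h only just, with 0.3786 against a limit of 0.3785.

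**Figure D2:**
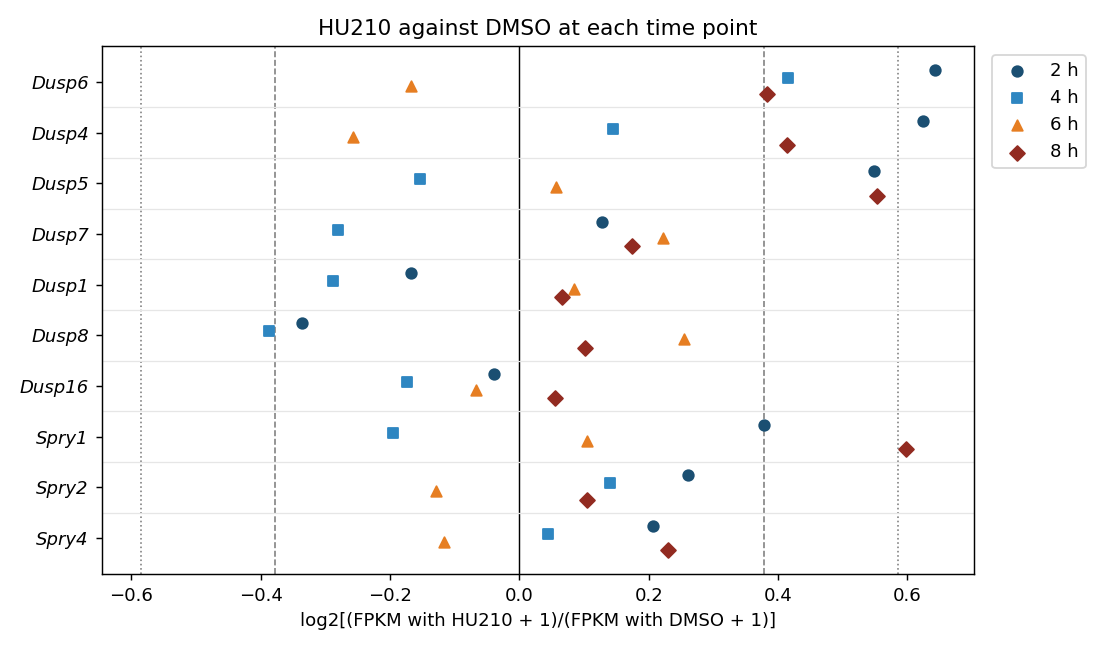
Log2 change of HU210 against DMSO (x axis) for each gene (rows), with 1 marker for each hour, dashed lines at 1.3-fold and dotted lines at 1.5-fold. The markers for 8 h all lie to the right of 0, from 0.056 for Dusp16 to 0.60 for Spry1, and those for 6 h lie between -0.26 and 0.25.

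The comparisons at the 4 hours differ in how strongly the change of a gene went with its GC content. Over the 11311 genes tested, Spearman's rho between log2 change and GC content came to 0.15 at 2 h and 0.50 at 4 h, then -0.27 at 6 h and -0.14 at 8 h, given as a description across genes that are not independent. The exonic GC content of the members ranged from 45.5% for Dusp16 to 58.8% for Dusp8. After that trend and the one on length had been taken out, the change at 4 h was 0.54 for Dusp6, -0.54 for Dusp8, -0.42 for Dusp7 and 0.34 for Spry2. Dusp1, Dusp5, Spry1 and Spry4 were then at -0.33, -0.29, -0.33 and 0.11. Dusp4 moved nearer to 0, from 0.14 to 0.027, and Dusp16 changed sign, from -0.17 to 0.080. Centring each library on its median moved the numbers of all genes higher and lower by 1.3-fold from 168 and 442 to 215 and 322 at 2 h, from 1014 and 2251 to 1659 and 1505 at 4 h, from 722 and 194 to 403 and 353 at 6 h, and from 495 and 163 to 312 and 239 at 8 h. Neuroblastoma and neuronal markers summed to 338 to 392 FPKM with DMSO and 335 to 415 with HU210, with Hand2, Stmn2 and Chga well expressed and Th and Dbh near 2 and 1 FPKM. Of 8 markers of other cell types, 5 were listed at all hours, and without Acta2, which made up most of their sum, they came to 5.12 to 6.10 FPKM with DMSO and 5.21 to 6.84 with HU210. The part of these differences between libraries in the results was not tested.

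A linear model over all 8 libraries asked whether a HU210 effect was shared by the 4 hours, with each HU210 library set against the DMSO library of its own hour. The estimate was largest for Dusp6, at 0.32 ± 0.14 (SE) on the log2 scale with a 95% confidence interval of -0.018 to 0.65 (limma, Benjamini-Hochberg adjusted p = 1.0). It was 0.25 ± 0.14 for Dusp5, 0.23 ± 0.15 for Dusp4 and 0.22 ± 0.14 for Spry1, and within 0.10 of 0 for the other 6 members. In limma, 0 genes (0% of those tested) had an adjusted p under 0.05, 148 genes had an unadjusted p under 0.05 (146 in limma without a trend of variance on expression), and 0 of the 148 were members. Over the alternatives, the adjusted p of Dusp6 in limma ranged from 0.88 to 1. Leaving out 1 hour at a time moved the estimate for Dusp6 between 0.21 (without 2 h) and 0.48 (without 6 h), and that for Dusp4 between 0.10 (without 2 h) and 0.39 (without 6 h). Without 6 h, the estimate for Dusp6 had an unadjusted p of 0.0050 and an adjusted p of 0.88 in limma. For Dusp5 it ranged from 0.15 (without 8 h) to 0.39 (without 4 h), and for Spry1 from 0.096 (without 8 h) to 0.36 (without 4 h).

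**Figure D3:**
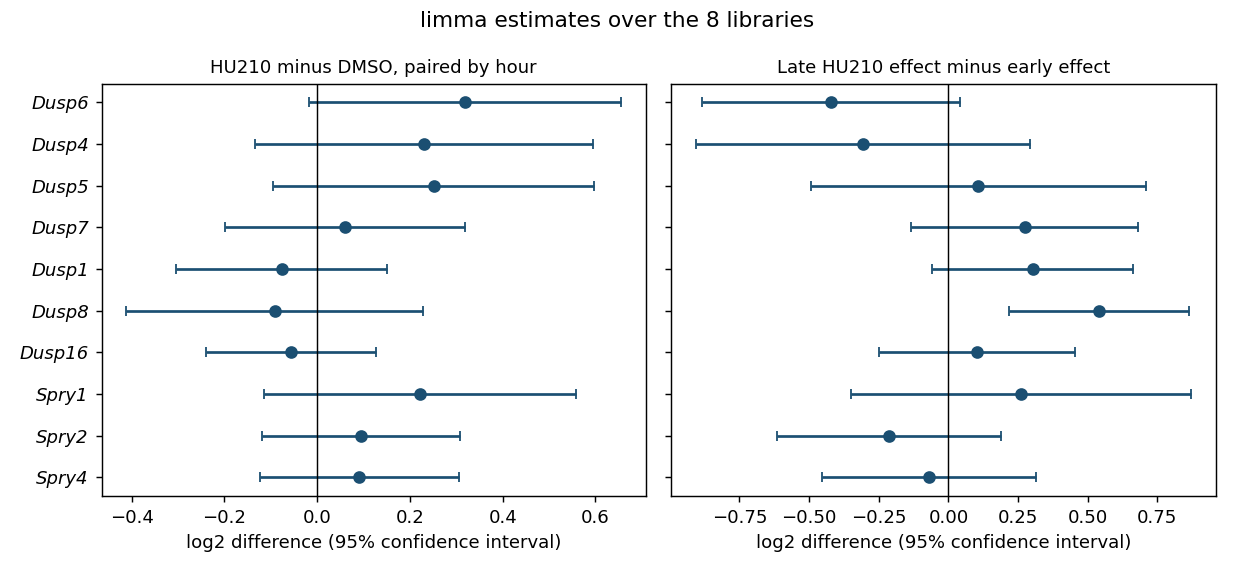
Log2 differences (x axis) with 95% confidence intervals from limma over the 8 libraries for each gene (rows). The left panel shows HU210 minus DMSO paired by hour, where every interval includes 0, and the right panel shows the HU210 effect at 6 and 8 h minus that at 2 and 4 h, where the interval of Dusp8 (0.22 to 0.86) lies above 0 before adjustment for the genes tested.

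The same libraries were compared between the late hours (6 and 8 h) and the early hours (2 and 4 h). The fit had no term for the single hour, so hours within the early or the late group served as replicates, which they are not. Spry4 was higher late by 0.21 ± 0.082 (SE) with an interval of 0.024 to 0.40 (limma, adjusted p = 0.66, unadjusted p = 0.032), and its adjusted p ranged from 0.33 to 1.0 over the alternatives. The difference was 0.20 ± 0.12 for Dusp6 and between -0.080 and 0.16 for the other 8 members. In limma 0 genes (0% of those tested) had an adjusted p under 0.05, and 815 had an unadjusted p under 0.05 (810 without the trend), among them 1 member, Spry4.

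Whether the HU210 effect itself differed between late and early hours was tested as an interaction. This fit also had no term for the single hour, so the HU210 and DMSO libraries of an hour were not paired. Its p-values treat the hours within the early or the late group as replicates. Dusp8 had the largest difference, 0.54 ± 0.14 (SE) with an interval of 0.22 to 0.86 (limma, adjusted p = 0.18, unadjusted p = 0.0049), and this adjusted p ranged from 0.12 to 0.94 over the alternatives. The estimate for Dusp8 was positive in every alternative, between 0.39 and 0.71. Dusp6 and Dusp4 pointed the other way, at -0.42 ± 0.20 (SE) and -0.31 ± 0.26 (SE), and without 6 h the estimates were -0.15 and 0.030. In limma 0 genes (0% of those tested) had an adjusted p under 0.05, and 1786 had an unadjusted p under 0.05 (1786 also without the trend), of which 1 was a member.

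The sequence of directions seen for Dusp6, Dusp4, Spry2 and Spry4, higher at 2, 4 and 8 h and lower at 6 h, was counted in other gene lists after it had been seen in these 4 genes. It held for 7.56% of all genes tested. Among 11 tested ERK output genes, which are transcribed when ERK is active, it held for 6, namely Egr1, Junb, Ier2, Ier3, Phlda1 and Ccnd1. It held for 1 of 7 other feedback inhibitors (Spred3), for 0 of 15 genes of the Ras and ERK cascade and for 0 of 7 genes of the JNK, p38 and ERK5 kinases. All of these genes were measured in the same 8 libraries, so the DMSO library at 6 h enters every one of the values at that hour. With the mean of the 4 DMSO libraries as the reference, none of the 4 members was lower at 6 h. The changes were then 0.21 for Dusp6, 0.14 for Dusp4, 0.012 for Spry2 and 0.046 for Spry4.

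Egr1, an immediate-early transcription factor gene, had an FPKM of 18.3 with DMSO and 36.8 with HU210 at 2 h, 18.8 and 24.3 at 4 h, 27.0 and 19.2 at 6 h, and 18.9 and 32.2 at 8 h. Its log2 changes of 0.97, 0.35, -0.47 and 0.74 at the 4 successive hours were larger than those of Dusp6 at 2, 6 and 8 h, and the DMSO library at 6 h was again the highest of the DMSO libraries. Junb, an AP-1 subunit gene chosen after its values were seen, had log2 changes of 0.49, 0.54, -0.21 and 0.21. Phlda1, chosen in the same way, had 0.49, 0.34, -0.27 and 0.48. The most abundant gene of the list, Ccnd1 (cyclin D1), stayed within 0.26 of 0, and Myc within 0.086.

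**Figure D4:**
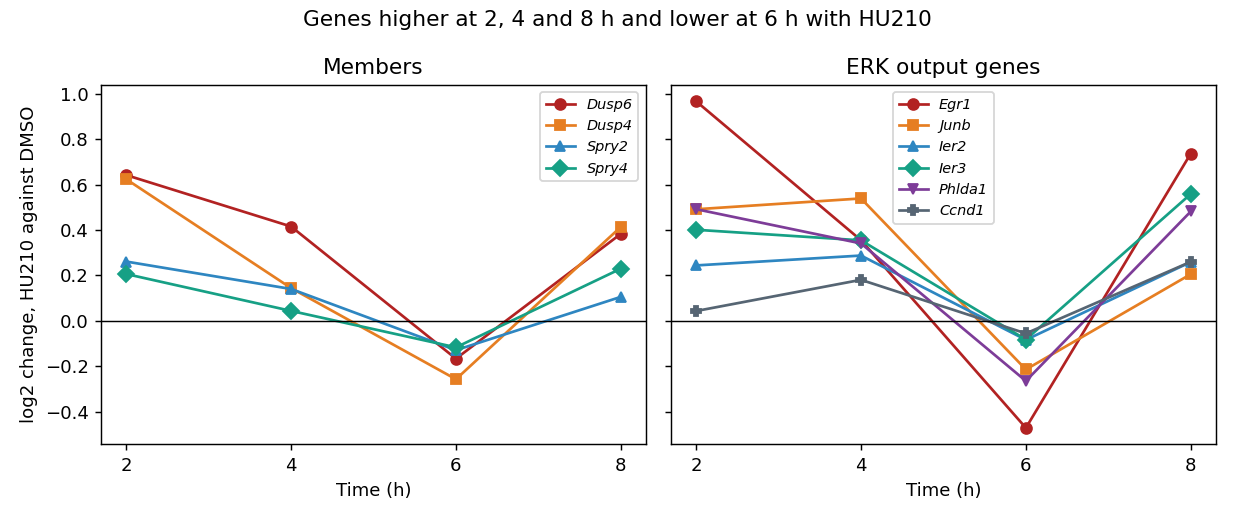
Log2 change of HU210 against DMSO (y axis) at each hour (x axis) for the members (left) and the ERK output genes (right) that were higher at 2, 4 and 8 h and lower at 6 h. The genes were selected for this order, the lines join the hours of a gene, and the lowest value at 6 h is that of Egr1, -0.47.

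Over the ERK output list, 5 of 11 genes were higher by at least 1.3-fold at 2 h (1.49% of all genes tested) and 0 were lower, and at 8 h 3 were higher (4.38%) and 0 lower. At 4 h 2 were higher (8.96%) and 2 lower (19.9%), the latter close to the share of all genes, and at 6 h 0 were higher and 1 lower (1.72%). The ETS factor genes of the list did not share this order. Etv1 was lower with HU210 at 4 h by a log2 change of -0.82, and Etv4 and Etv5, abundant at mean FPKM of 71.4 and 32.7, had changes of 0.43 and -0.39 at 4 h and within 0.19 of 0 at the other hours.

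Of the other feedback inhibitors, 7 of 9 were tested. All 7 were higher with HU210 at 8 h, where 62.5% of all genes tested were, with a median log2 change of 0.28 against 0.044 for all genes. At that hour 1 of the 7 was higher by at least 1.3-fold (4.38% of all genes), Spred1, whose protein inhibits Raf activation. Dusp2, a nuclear ERK phosphatase gene chosen after its values were seen, was the 1 gene past 1.3-fold at 2 h (1.49% of all genes upward). Its FPKM at that hour was 2.86 with DMSO and 4.68 with HU210. At 4 h, Spred1 (-0.58) and Errfi1 (-0.62), an inhibitor of the EGF receptor, were lower by at least 1.3-fold. These are 2 of the 7, at an hour when 19.9% of all genes tested were lower by that size. Spred2 stayed within 0.30 of 0 at all 4 hours.

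The kinases and adaptors that these inhibitors act on were also counted. Of 15 genes of the Ras and ERK cascade, 0 passed 1.3-fold in either direction at 2 h (1.49% of all genes tested upward and 3.91% downward) or 8 h (4.38% and 1.44%). At 4 h, 7 were lower (19.9% of all genes) and 1 higher (8.96%) by that size, and at 6 h 3 were higher (6.38%) and 0 lower (1.72%). Among the 7 tested JNK, p38 and ERK5 kinases, targets of Dusp1, Dusp8 and Dusp16 among them, 2 were lower by 1.3-fold at 4 h (19.9% of all genes), 1 was higher at 6 h (6.38%) and 0 passed it at 2 h or 8 h. Mapk8, the JNK1 gene, was lower at 4 h by a log2 change of -0.70. Cnr1, the CB1R gene, had an FPKM of 17.3 with DMSO and 15.5 with HU210 at 2 h, 27.0 and 18.3 at 4 h, 20.2 and 27.9 at 6 h, and 24.7 and 20.8 at 8 h.

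Across the 8 libraries the members went together to different degrees, given as Pearson's r of log2(FPKM + 1) without a test, since the points share their hours and libraries. The r was 0.93 for Dusp4 with Dusp6, 0.80 for Spry2 with Spry4 and 0.77 for Dusp6 with Spry2. Dusp1 went with Dusp16 (0.82) and Dusp8 (0.72), and not with Dusp6 (-0.44). Among the 8616 genes with a mean FPKM of at least 5, those most like Dusp6 were Ptgir, the prostacyclin receptor gene (0.98), Cdc42ep1, an effector of Cdc42 (0.98), and Fhl3, a LIM protein gene (0.96). The genes most like Dusp4 were Irs2, an insulin receptor adaptor gene (0.95), Dusp6 (0.93) and Pafah2 (0.92). Dusp5 was most like Mycn (0.96), Zfp36l2, which promotes mRNA decay (0.93), and Rsc1a1 (0.88).

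Cdc42ep1 had an FPKM of 28.0 with DMSO and 42.0 with HU210 at 2 h, 27.7 and 41.5 at 4 h, 44.4 and 35.7 at 6 h, and 32.6 and 43.8 at 8 h. Its highest DMSO library, as for Dusp6, was that of 6 h. Mycn had an FPKM of 10.3 and 13.9 at 2 h, 11.9 and 11.5 at 4 h, 11.9 and 12.0 at 6 h, and 10.3 and 12.4 at 8 h, so that, like Dusp5, it differed most at 2 h and 8 h. Cdc42ep1 and Mycn were picked for their likeness to Dusp6 and Dusp5 over these same libraries, so these shared features are no separate result.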

How the data were processed

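mRNA of N2A cells was measured in 8 libraries. Per the submitters' processing notes and the methods, the authors mapped reads to mm9 with TopHat2 2.0.8, Bowtie2 2.1.0 and SAMtools 0.1.7 and made FPKM values with Cufflinks and Cuffdiff (versions not given in the sources used here), with upper-quartile normalization, fragment bias correction and weighting of reads with several hits. The deposited FPKM carry an added 1, which was subtracted here. Counts per gene were not used, so the depth behind each FPKM is unknown and no counting error or floor is given. Columns of the authors' own comparisons (log2 fold change, p-value and adjusted p) and a table of their differentially expressed genes were not used.

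Genes listed at all 4 hours with a mean FPKM of at least 1 were tested on log2(FPKM + 1), which understates the change of low genes, with limma 3.58.1 in R 4.3.3, two-sided, with Benjamini-Hochberg adjustment over all 11311 genes. The shared HU210 effect had the hour as a factor, the late against early comparison had treatment as a covariate, and the product of treatment with late or early tested the interaction. Only the first of these fits paired the libraries by hour. Steps were tested on simulated data with equal, independent noise for every gene and no differences between hours, which is simpler than the real data. There the interaction fit recovered 18% of the genes given a log2 change of 0.5 and 99.5% of those given 1. Alternatives were a pseudocount of 0.1, no filter, each library centred on its median, the mean of the 4 DMSO libraries as reference, removal of a loess trend (span 0.3, degree 1) on GC content and length, limma without a trend, hour as a number, treatment without the hour, and leaving out each hour.

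The members and lists were chosen with earlier results of these data known. Named were all members, list genes past 1.5-fold or among the 4 most abundant of a list, Cnr1 and the 3 genes most correlated with a member. Dusp2, Junb and Phlda1 are said to have been chosen after their values were seen. Ier2, Ier3, Th and Dbh also met none of these rules, and Ier2 and Ier3 were named for the order of directions that they showed. Spry3, Epha4, Mapk13, Tubb3, Ptprc and Epcam were not analysed here, and some list genes are counted but not reported here by name. Positions, exonic length and GC content came from GENCODE vM1 on mm9, and promoters from RefSeq. Tables and plots used Python 3.11.15, numpy 2.4.6, pandas 2.3.3 and matplotlib 3.10.9.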

Additional observations from a re-analysis of the deposited data

Results flagged for a closer look

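Of the listed genes outside the members that are named here, 6 were higher with HU210 by at least 1.3-fold at one hour and lower by at least that size at another, and with 1 library per condition the difference between the hours was not tested. Egr1 had a log2 change of 0.97 at 2 h and -0.47 at 6 h. Spred1, a Raf inhibitor gene, had 0.41 at 8 h and -0.58 at 4 h. The other 4 were all lower at 4 h and higher at 6 h. The Ras exchange factor gene Sos1 had -0.76 at 4 h and 0.51 at 6 h, and Sos2 had -0.76 and 0.56. The sympathoadrenal transcription factor genes Phox2a and Hand2 of the marker list showed the same order, with -0.71 and 0.40 for Phox2a and -0.52 and 0.53 for Hand2. None of the 10 members passed 1.3-fold in both directions.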

How the results depend on the processing

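With 1 library per condition and no counts per gene, the size calls at single hours rest on 1 difference each. The number of members lower by 1.3-fold at 2 h was 0, and was 1 with a pseudocount of 0.1 and 1 after the GC content and length trend was removed (Dusp8 in both cases). At 4 h the number lower was 1, and was 0 with centred libraries, 0 against the mean DMSO library, 2 with a pseudocount of 0.1 and 2 with the trend removed. The number higher at 4 h was 1, and 0 against the mean DMSO library. The number higher at 8 h was 4, and 2 with centred libraries, 2 against the mean DMSO library and 2 with the trend removed.

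Genes with an adjusted p under 0.05 in limma numbered 0 in all 3 fits. Late against early gave 1 with the trend removed, and the interaction gave 7 without the filter and 0 to 1 when an hour was left out (1 without 6 h). Removing the pairing by hour (no replicate block) left 0 genes for the HU210 effect, and 91 in place of 148 at an unadjusted p under 0.05. The libraries carry no replicate numbers beyond 1 per condition. Leaving out an hour changed the sign of the HU210 effect of Dusp8 (-0.21 to 0.0065), of the late difference of Spry1 (-0.037 to 0.23) and Dusp1 (-0.038 to 0.13), and of the interaction of Dusp5 (-0.24 to 0.46, with -0.14 without 8 h), Spry4 (-0.24 to 0.10, with 0.013 without 2 h), Spry1 (-0.027 to 0.55) and Dusp4 (-0.64 to 0.030). With centred libraries the interaction was -0.039 for Dusp5 and -0.046 for Dusp16, and -0.13 for Dusp16 with the trend removed. None of these reversed values had an adjusted p under 0.05, and the cause was not tested.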

Other observations

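Genes whose levels went with the remaining members over the 8 libraries include other signalling genes, given as Pearson's r without a test. Pim1, a serine/threonine kinase gene, had an r of 0.96 with Dusp1. Its FPKM was 10.5 with DMSO and 9.34 with HU210 at 2 h, 9.36 and 7.43 at 4 h, 8.80 and 10.2 at 6 h, and 9.49 and 10.5 at 8 h, so that the HU210 library was the lower at both early hours and the higher at both late hours, as for Dusp1. S1pr2, a sphingosine 1-phosphate receptor gene, had an r of 0.90 with Spry1 and was higher with HU210 at 2 h, with 5.74 FPKM in the DMSO library and 6.74 in the HU210 library. Bcl2l1, an inhibitor of apoptosis, had an r of 0.94 with Spry2, and its DMSO library at 6 h was the highest of all 8, at 18.5 FPKM.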
